A study of Ovis aries with 8 samples.

Results

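Genes that carry signals of leukaemia inhibitory factor (LIF) and ciliary neurotrophic factor (CNTF) into the cell were followed through RNA sequencing of sheep embryonic stem cells, pluripotent cells that derive from the inner cell mass. They were taken by gene symbol from the deposited table, which held all 10 of them among 28475 genes. They comprised the receptor chains CNTFR, LIFR, IL6ST and OSMR, the kinases JAK1 and JAK2, the transcription factor STAT3, and the target genes SOCS3, PIM1 and PIM3. Polyadenylated RNA was sequenced in 8 libraries, which formed 4 groups of 2. Primed cells came from 2 lines, A and B, labelled wild type and at passage 10, in NBFR medium with Activin A (20 ng/mL), bFGF (20 ng/mL), the tankyrase inhibitor endo-IWR-1 (3 µM) and BSA (1%). Naive-like cells, labelled as converted from primed cells, were at passage 12, either feeder-free or on mouse embryonic fibroblasts (MEFs). Their medium held human LIF (20 ng/mL), Activin A (20 ng/mL) and ascorbic acid (50 µg/mL). It also held PD0325901 (1 µM), which inhibits MEK, XAV-939 (2 µM), which inhibits tankyrase, Go6983 (2 µM) against protein kinase C, and CGP77675 (1.2 µM) against SRC kinases. Activin A was common to all groups, as was culture at 37 °C in 5% CO2. LIF was listed for the naive-like medium alone, and there it came together with the inhibitors, the loss of bFGF and the later passage, so that their shares in any difference cannot be told apart. The primed line from which the naive-like cells were converted is not given in the labels.

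LIF binds LIFR, which then pairs with IL6ST (gp130), the signalling chain shared by the interleukin-6 family of cytokines. CNTF first binds CNTFR, a receptor anchored to the membrane by a lipid and without a signalling domain of its own, which then recruits LIFR and IL6ST. OSMR pairs with IL6ST for oncostatin M. JAK1 and JAK2 sit on the inner part of these receptors and phosphorylate STAT3, which enters the nucleus and switches on targets, among them SOCS3, a feedback inhibitor that binds IL6ST and the JAKs, and the serine/threonine kinases PIM1 and PIM3. In mouse embryonic stem cells this route sustains naive self-renewal, whereas primed cells rely on FGF and Activin. RNA levels do not measure phosphorylation of STAT3, which is the active form.

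Levels are given as TPM, transcripts in each 1000000, a measure corrected for transcript length, so that levels of different genes can be compared. Labels gave about 20000000 paired-end reads per library, and TPM keep no depth behind a single value. The labels do not tie replicates to separate cultures, so p-values measure the spread between these libraries, which may be technical. All 7 pluripotency markers were detected, and their summed level was 2400 to 2482 TPM in primed and 3183 to 3518 TPM in naive-like libraries. The higher sum did not hold for each marker: 3 rose in naive-like cells, 1 fell and 3 did not pass. Of all genes tested, 28.6% rose and 22.1% fell. Of 5 hypoblast markers 1 reached 1 TPM in at least 2 libraries, as did 0 of the 4 trophectoderm markers that were listed. The fibroblast markers COL1A2 and COL3A1 were at 39.0 and 37.0 TPM and 17.5 and 19.8 TPM in MEF libraries against at most 0.219 and 0.123 TPM in feeder-free naive-like libraries. Of the 9 fibroblast markers tested, 3 rose on MEFs (COL1A1 with these) and 3 fell, namely TAGLN, LUM and COL5A1, and 3 did not pass. Whether the transcripts that rose came from feeder cells was not tested. In bulk libraries such as these, fewer cells with a transcript and less of it per cell cannot be told apart.

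CNTFR stood far apart from the other 9 genes. Its level was 105 and 96.0 TPM in the libraries of primed line A and 84.9 and 79.2 TPM in those of line B. In naive-like cells it was 1.45 and 0.922 TPM without feeders and 1.5004 and 1.29 TPM on MEFs. Every primed library was thus above every naive-like library, and the ratio of the mean of primed to that of naive-like libraries was 70.6. In rank, CNTFR went from a place above 88.3% of the genes with a mean of at least 1 TPM in primed cells to a place above 4.05% of such genes in naive-like cells. CNTFR fell by 5.33 ± 0.116 (SE) in log2(TPM + 1), a scale on which changes of low genes come out too small (limma, adjusted p = 6.77e-09). It was −5.40 ± 0.111 for the feeder-free naive-like libraries alone (limma, adjusted p = 2.90e-08). CNTFR is known as a receptor of neurons, and 5 neuroectoderm markers were also lower in naive-like cells: all 5 fell, where 22.1% of all genes did. Their summed level was 100.2 to 119 TPM in primed, 5.49 to 7.03 TPM in feeder-free and 24.5 to 25.0 TPM in MEF libraries. SIX3 made up most of the sum on MEFs, at 23.4 and 23.5 TPM, against 4.50 and 6.29 TPM without feeders, a step that CNTFR did not share. The part of these markers in the difference of CNTFR was not tested. In the RefSeq annotation the span of CNTFR overlaps that of ENHO, which stood at 24.7 ± 0.547 TPM in primed and 15.1 ± 5.17 TPM in naive-like cells (SD, n = 4 each). Reads in a shared stretch could go to either gene.

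**Figure D1:**
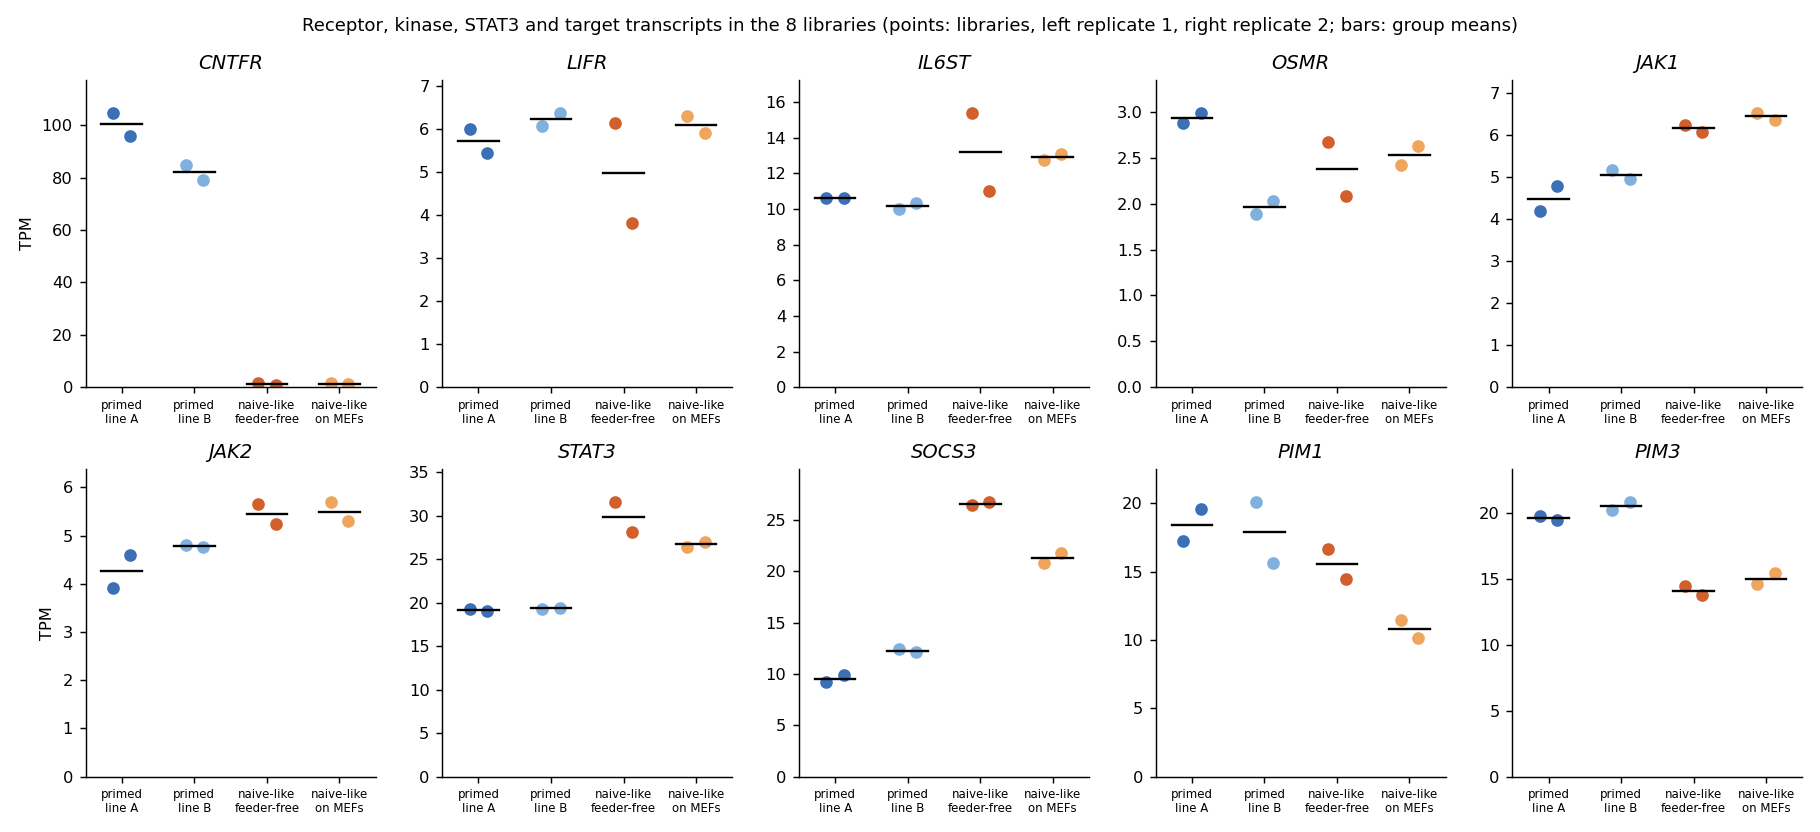
TPM of the 10 genes in each of the 8 libraries (points) with the mean of each group of 2 (bars), on linear axes that start at 0. CNTFR is near 100 TPM in primed and near 1 TPM in naive-like libraries, STAT3 and SOCS3 are higher in all 4 naive-like libraries, PIM3 is lower in them, and LIFR and OSMR overlap between the states.

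LIFR, the chain that binds LIF itself, showed no such difference. It was at 6.01 and 5.43 TPM in line A, 6.06 and 6.37 TPM in line B, 6.14 and 3.82 TPM in feeder-free naive-like cells and 6.30 and 5.89 TPM on MEFs. Neighbouring groups in the order of their means overlapped throughout, and only feeder-free replicate 2 lay below the range of the other libraries. For naive-like against primed cells the difference was −0.11 ± 0.139, with a 95% interval of −0.42 to 0.20 (limma, adjusted p = 0.538). In the feeder-free comparison it was −0.25 ± 0.154 (limma, adjusted p = 0.208). That value rested on which of the 2 feeder-free libraries was kept: it was −0.53 without replicate 1 (limma, adjusted p = 0.0110) and 0.036 without replicate 2 (limma, adjusted p = 0.824).

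IL6ST, the shared signalling chain, was modestly higher in naive-like cells. Primed libraries held 10.6 and 10.6 TPM in line A and 9.98 and 10.3 TPM in line B, against 15.4 and 10.99 TPM without feeders and 12.8 and 13.1 TPM over MEFs. The lowest naive-like library, feeder-free replicate 2, was above the highest primed library by a small margin. IL6ST rose by 0.30 ± 0.0972 for state (limma, adjusted p = 0.0295), and in the feeder-free comparison it stood at 0.30 ± 0.122 (limma, adjusted p = 0.0657). The call for state did not pass without line A replicate 2, either library of line B, feeder-free replicate 1 or either MEF library (limma, adjusted p = 0.0521 to 0.0702). Nor did it pass with the 4 groups of 2 as a random block (0.125) or with their means (0.103). Without feeder-free replicate 2 the feeder-free difference was 0.53 (limma, adjusted p = 0.00366).

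OSMR, the low-abundance chain for oncostatin M, was at 2.88 and 2.99 TPM in line A, 1.89 and 2.03 TPM in line B, 2.67 and 2.08 TPM in the feeder-free pair and 2.43 and 2.63 TPM in the MEF pair. The 2 primed lines lay on either side of the naive-like groups. Its difference between states was 0.01 ± 0.137, with a 95% interval of −0.30 to 0.32 (limma, adjusted p = 0.949), and its sign turned with median-ratio scaling. Line B was lower than line A by −0.41 ± 0.137, which did not pass (limma, adjusted p = 0.118).

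Ratios of TPM within a library do not depend on how that library was scaled. Of the summed level of 5 ligand-binding chains (CNTFR, LIFR, OSMR and the receptors of interleukin-6 and interleukin-11, IL6R and IL11RA), CNTFR made up 74.9 to 77.8% in primed and 4.74 to 5.95% in naive-like libraries. LIFR made up 4.40 to 6.03% in primed and 19.6 to 25.2% in naive-like libraries, although its own level overlapped. Primed libraries held 12.4 to 17.7 CNTFR transcripts for each of LIFR, and naive-like libraries 0.220 to 0.241. The summed level of the 5 chains was 106 to 136 TPM in primed and 19.5 to 26.9 TPM in naive-like libraries. LIFR stood at 0.512 to 0.618 of the level of IL6ST in primed and at 0.348 to 0.493 in naive-like libraries, so that within each of the 8 libraries the signalling chain was the more abundant of the pair.

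**Figure D2:**
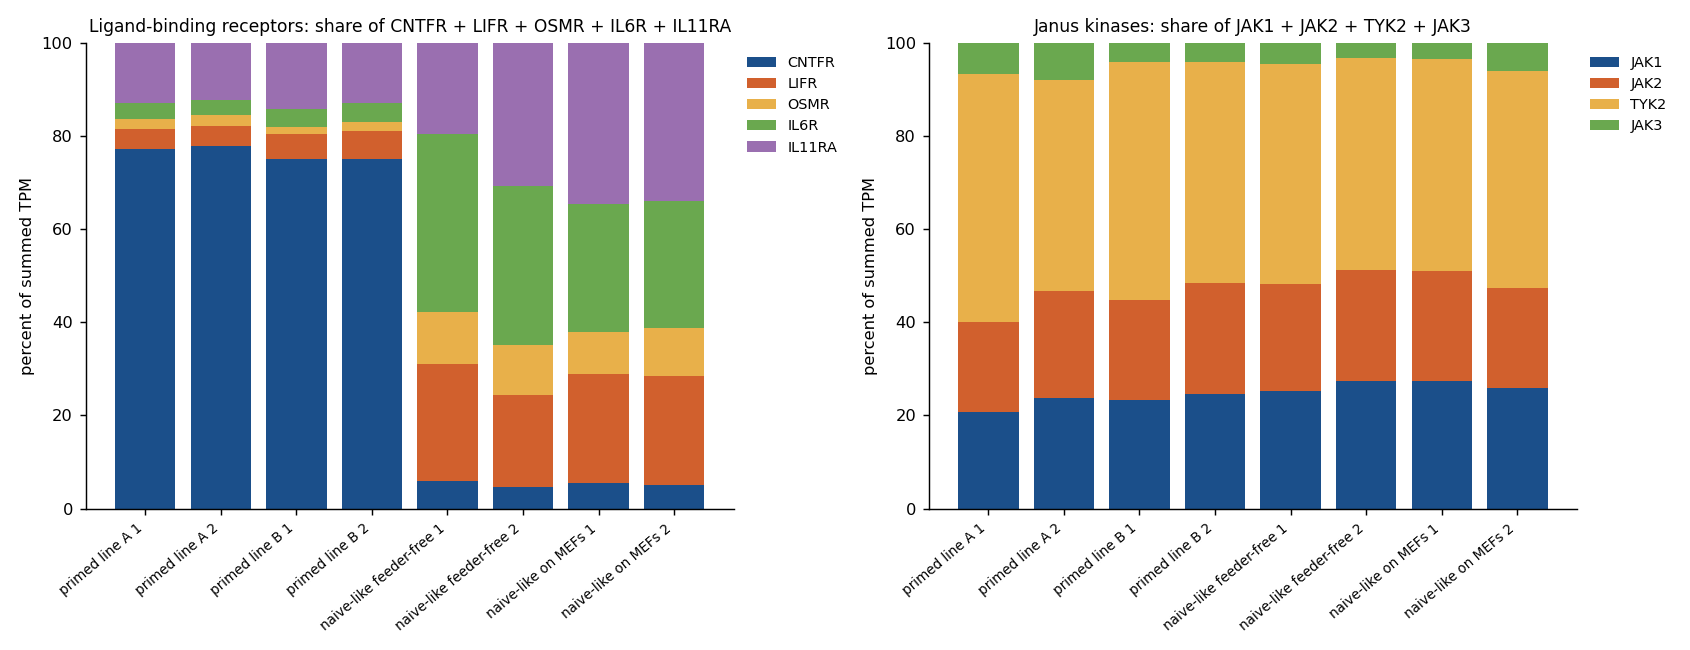
Stacked bars give, for each library, the percent of summed TPM held by each of 5 ligand-binding receptor chains (left) and by each of 4 Janus kinases (right). CNTFR fills 74.9 to 77.8% of the left bars in primed libraries and 4.74 to 5.95% in naive-like libraries, whereas JAK1 fills 20.7 to 24.7% and 25.3 to 27.5% of the right bars.

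Other receptors of the family split. IL27RA, which pairs with IL6ST for interleukin-27, was the most abundant of the receptors examined in naive-like cells, at 54.7 to 57.2 TPM in primed and 102 to 112 TPM in naive-like libraries, and rose by 0.91 ± 0.0477 (limma, adjusted p = 7.86e-07). IL6R rose by 0.71 ± 0.110, from 4.22 ± 0.250 to 7.57 ± 1.21 TPM (SD, n = 4 each). IL11RA fell by 1.06 ± 0.179, from 15.7 ± 1.65 to 7.17 ± 2.14 TPM (SD, n = 4 each). LEPR, the leptin receptor, was at 1.53 ± 0.760 TPM in primed and 1.01 ± 0.736 TPM in naive-like libraries (limma, adjusted p = 0.340). Of the 6 other receptors, 4 were tested, of which 2 rose, 1 fell and 1 did not pass. Over all genes tested, 28.6% rose and 22.1% fell. IL31RA was at 0.117 TPM or less in each library, and CSF3R was listed at 0 in all 8.

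Most ligand transcripts were scarce. LIF itself was at 0.202 to 0.552 TPM in primed and 0.259 to 0.418 TPM in naive-like libraries and fell below the filter of at least 1 TPM in at least 2 libraries, as did CNTF, OSM, IL6, IL27 and EBI3. Of 10 ligand genes, 4 were tested, of which 3 fell, 0 rose and 1 did not pass. Among all genes tested, 22.1% fell and 28.6% rose. CTF1 (cardiotrophin 1, a ligand of LIFR and IL6ST) fell by 1.00 ± 0.128, from 10.9 ± 1.90 to 4.89 ± 0.412 TPM (SD, n = 4 each). IL11 was at 3.33 ± 0.545 TPM in primed and 5.05 ± 1.49 TPM in naive-like libraries (SD, n = 4 each; limma, adjusted p = 0.0622). CLCF1, a cytokine that acts through CNTFR, went from 5.73 to 7.70 TPM in primed libraries to 2.52 to 5.17 TPM in naive-like libraries (−0.59 ± 0.176, limma, adjusted p = 0.0194). It did not pass without line A replicate 1 (0.0520), with the groups of 2 as a random block (0.0658) or with their means (0.0828).

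Beside these levels stand those of the fibroblast markers. The summed level of the 13 fibroblast markers was 587 to 598 TPM in feeder-free, 691 to 692 TPM in MEF and 1078 to 1207 TPM in primed libraries. Of these, TAGLN held 423 to 1037 TPM per library, FAP was listed at 0 in all but MEF replicate 2, and POSTN in both feeder-free libraries. The part of feeder transcripts in the levels of ligands and receptors on MEFs was not tested.

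The Janus kinases were low and moved little. JAK1, the kinase regarded as the main one for IL6ST, was at 4.19 and 4.78 TPM in line A, 5.17 and 4.95 TPM in line B, 6.25 and 6.08 TPM where feeders were absent and 6.54 and 6.36 TPM on MEFs. All 4 naive-like libraries were above all 4 primed libraries, and JAK1 rose by 0.34 ± 0.0856 for state (limma, adjusted p = 0.00858). With the libraries of each group averaged, it did not pass (limma, adjusted p = 0.120). In the RefSeq annotation the span of JAK1 overlaps that of RAVER2, a gene named after its values were seen. RAVER2 stood at 13.3 ± 0.924 TPM in primed and 16.1 ± 0.984 TPM in naive-like cells (SD, n = 4 each), and shared reads could go to either gene. Feeder-free libraries against line B alone differed in JAK1 by 0.24, which did not pass (limma, adjusted p = 0.0980). In the feeder-free comparison JAK1 rose by 0.31 ± 0.0944 (limma, adjusted p = 0.0218), a call that was lost on omission of replicate 1 of line A, replicate 2 of line B or any feeder-free library (limma, adjusted p = 0.0528 to 0.0851).

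JAK2 was at 3.92 and 4.60 TPM in line A, 4.81 and 4.76 TPM in line B, 5.67 and 5.25 TPM without feeders and 5.70 and 5.30 TPM over MEFs. These ranges did not overlap either, but the difference of 0.23 ± 0.0890 did not pass (limma, adjusted p = 0.0531). It passed with quantile normalization (limma, adjusted p = 0.0192), a pseudocount of 5 (0.0474), no variance trend (0.0259) and a fit of 4 groups (0.0387). Among the 4 Janus kinases TYK2 held the largest share in every library, at 45.4 to 53.2% in primed and 45.4 to 47.1% in naive-like libraries, and JAK1 held 20.7 to 24.7% and 25.3 to 27.5%. TYK2 stood at 10.2 against 11.01 TPM (limma, adjusted p = 0.347) and JAK3 at 1.18 against 1.06 TPM (limma, adjusted p = 0.685), primed first. Both genes lie outside the naming rule and were added with their values known.

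STAT3 was held within a narrow range in primed cells and was higher in all naive-like libraries. It was at 19.3 and 19.0 TPM in line A, 19.3 and 19.5 TPM in line B, 31.6 and 28.2 TPM in the feeder-free pair and 26.4 and 27.01 TPM in the MEF pair. The ratio of naive-like to primed means was 1.47. STAT3 rose by 0.53 ± 0.0675 for state (limma, adjusted p = 0.000196) and by 0.61 ± 0.0678 in the feeder-free comparison (limma, adjusted p = 0.000155).

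Other STAT genes moved in both directions. STAT4 rose by 1.05 ± 0.152, and was listed at 0 in both line A libraries, at 0.292 and 0.0350 TPM in line B and at 0.855 to 1.597 TPM in naive-like libraries. STAT6 fell by 0.42 ± 0.141 (limma, adjusted p = 0.0333), with overlapping libraries. It did not pass without either library of line A, feeder-free replicate 2 or either MEF library (limma, adjusted p = 0.0689 to 0.0852). Nor did it pass with the groups of 2 as a random block (limma, adjusted p = 0.0927) or as means (0.139), without a filter (0.0620) or with quantile normalization (0.0523). STAT5A was at 1.21 ± 0.417 TPM in primed and 0.600 ± 0.354 TPM in naive-like libraries (limma, adjusted p = 0.0680), and its reads can be confused with those of its close paralog STAT5B. Among the 8 other JAK and STAT genes, all tested, there were 1 rise and 2 falls, and 5 did not pass. The shares over all genes were 28.6% higher and 22.1% lower.

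SOCS3, the feedback inhibitor, had the largest rise of the 10 genes. It was at 9.20 and 9.86 TPM in line A, 12.4 and 12.2 TPM in line B, 26.4 and 26.7 TPM where feeders were absent and 20.8 and 21.7 TPM on MEFs. None of the 4 groups overlapped, and they ordered as line A, line B, MEF and feeder-free. The ratio of naive-like to primed means was 2.19. SOCS3 rose by 1.07 ± 0.121 for state (limma, adjusted p = 9.50e-05) and by 1.22 ± 0.0688 in the feeder-free comparison (limma, adjusted p = 3.54e-06). For each STAT3 transcript there were 0.477 to 0.641 of SOCS3 in primed and 0.787 to 0.949 in naive-like libraries, so SOCS3 was higher relative to STAT3 as well.

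The PIM kinases, also known targets of STAT3, did not rise with SOCS3. PIM3 was at 19.8 and 19.4 TPM in line A, 20.2 and 20.8 TPM in line B, 14.4 and 13.8 TPM without feeders and 14.6 and 15.5 TPM over MEFs. All naive-like libraries were below all primed libraries, and PIM3 fell by 0.44 ± 0.0624 for state (limma, adjusted p = 0.000379) and by 0.48 ± 0.0680 in the feeder-free comparison (limma, adjusted p = 0.000558). Its ratio to STAT3 was 1.02 to 1.07 in primed and 0.457 to 0.572 in naive-like libraries.

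PIM1 was at 17.3 and 19.6 TPM in line A, 20.1 and 15.7 TPM in line B, 16.7 and 14.5 TPM in the feeder-free pair and 11.5 and 10.1 TPM in the MEF pair. Feeder-free and primed libraries overlapped, and only the MEF libraries lay below all others. It fell by 0.45 ± 0.149 for state (limma, adjusted p = 0.0303), but its difference in the feeder-free comparison was −0.20 ± 0.119 (limma, adjusted p = 0.177). The call for state was lost on leaving out replicate 2 of line A, replicate 1 of line B or any MEF library (limma, adjusted p = 0.0712 to 0.0765). It was likewise lost with the 4 groups of 2 as a random block (limma, adjusted p = 0.0710), with their means (0.130) or without a filter (0.0509). PIM2, the third member of the kinase family, was at 26.5 in primed against 24.8 TPM in naive-like cells (limma, adjusted p = 0.543) and was added with its values known.

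**Figure D3:**
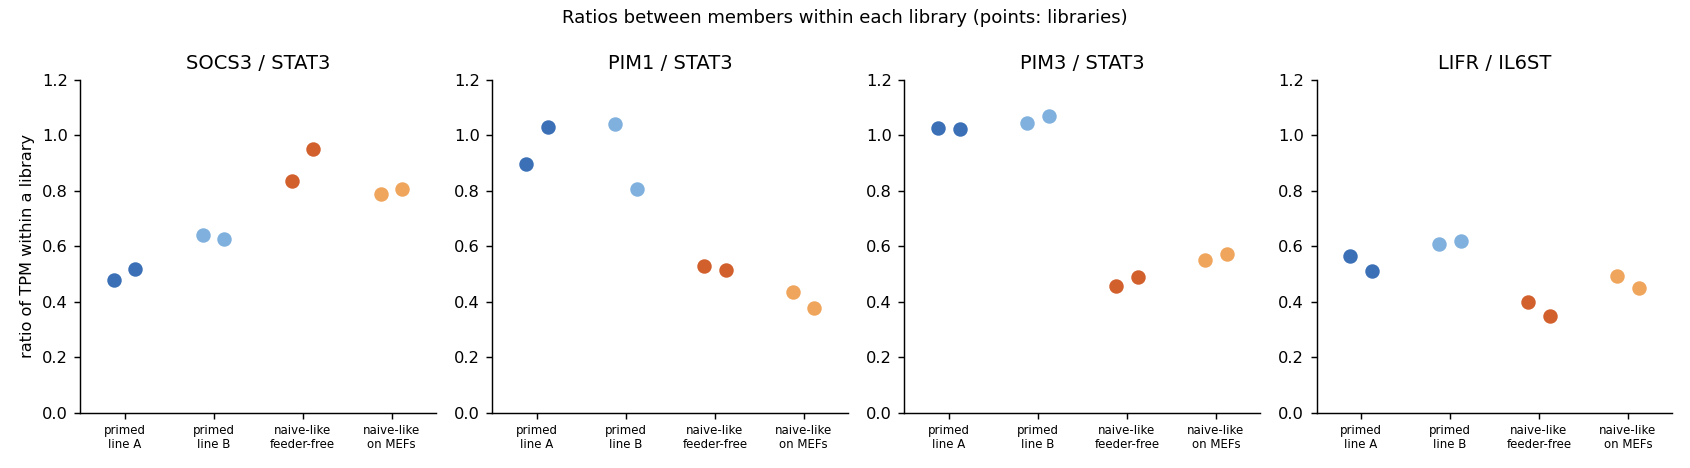
Ratio of the TPM of 2 genes within each library (points), by group, on axes from 0. SOCS3 relative to STAT3 is 0.477 to 0.641 in primed and 0.787 to 0.949 in naive-like libraries, whereas PIM1 and PIM3 relative to STAT3 and LIFR relative to IL6ST are lower in naive-like libraries.

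Across the 10 genes, 4 rose in naive-like cells (IL6ST, JAK1, STAT3 and SOCS3), 3 fell (CNTFR, PIM1 and PIM3) and 3 did not pass (LIFR, OSMR and JAK2). All 10 passed the filter on low values. Among the 14779 genes tested, 50.7% passed for state, 28.6% higher and 22.1% lower, so a call for state is common. Ranges did not overlap for 7 of the 10, 5 higher and 2 lower, against 26.8% and 20.9% of all genes, or 47.7% in both directions. The median difference was 0.12 over the 10 genes and 0.05 over all genes tested. In the feeder-free comparison 3 of the 10 rose, 2 fell and 5 did not pass, where 56.4% of all genes passed, 30.8% higher and 25.6% lower. There too 5 of the 10 lay wholly above primed libraries and 2 wholly below, against 32.9% and 27.0% of all genes (59.8% in both directions). Both comparisons use the same 4 primed libraries. Calls of CNTFR, STAT3, SOCS3 and PIM3 held under each of 19 alternatives in both comparisons.

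**Figure D4:**
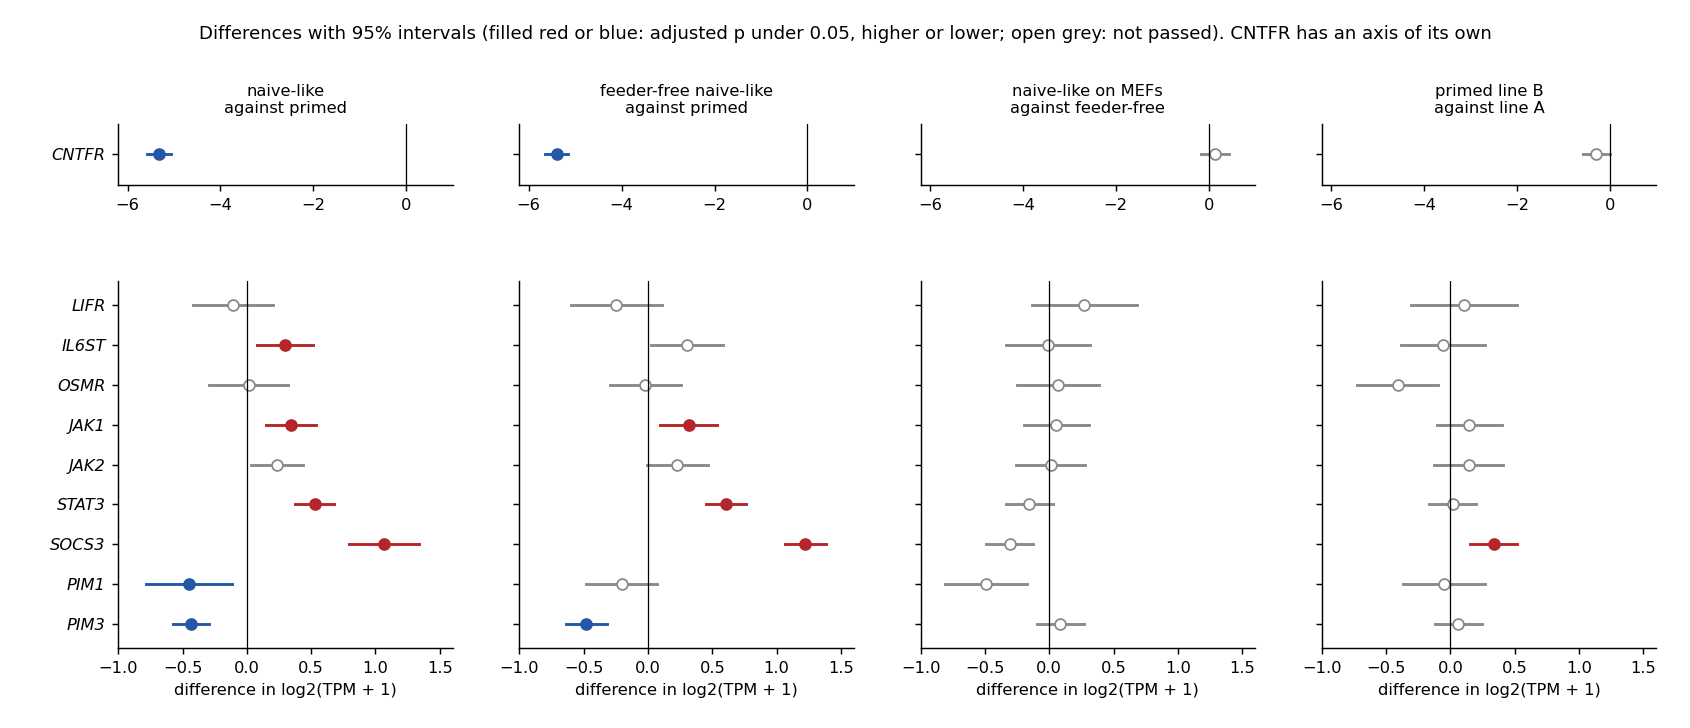
Difference in log2(TPM + 1) of each gene in the 4 comparisons, with its 95% interval from limma. Filled points passed at an adjusted p under 0.05 and open points did not, and CNTFR has an axis of its own. CNTFR at −5.33 exceeds the others in size for state, SOCS3 at 1.07 is the largest rise, and no gene passed between MEF and feeder-free libraries.

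Feeders made no difference that passed among the 10 genes: of the 10, 0 passed in either direction with limma, where 5.16% of all genes passed. At an unadjusted p under 0.05, where 20.8% of all genes stood, 2 of the 10 differed. They were SOCS3 (−0.31 ± 0.0795, limma, adjusted p = 0.0692) and PIM1 (−0.49 ± 0.137, limma, adjusted p = 0.0878), both lower on MEFs. The 95% intervals of the other 8 included 0, with STAT3 at −0.34 to 0.03 and LIFR at −0.14 to 0.68. Ranges did not overlap for 5 of the 10, 2 higher (28.7% of all genes) and 3 lower (23.9%) on MEFs, where 52.6% of all genes did not overlap. Of all genes, 2.89% passed as higher and 2.27% as lower. Since the naive-like groups share the primed libraries as reference, this comparison is also the test of whether their changes from primed cells differ.

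Between the primed lines SOCS3 alone passed. It was higher in line B by 0.34 ± 0.0795 (limma, adjusted p = 0.0441), where 7.36% of all genes passed, 4.18% as higher and 3.17% as lower. This call did not hold under 14 of 17 alternatives, including the omission of any 1 of the 8 libraries (limma, adjusted p = 0.0507 to 0.200). CNTFR was lower in line B by −0.29 ± 0.128 (limma, adjusted p = 0.217). The other 8 genes did not pass. At an unadjusted p under 0.05, where 24.3% of all genes stood, 2 of the 10 differed, SOCS3 and OSMR. With 2 libraries a side, ranges did not overlap for 9 of the 10, 6 higher and 3 lower in line B, against 35.7% and 19.1% of all genes, or 54.8% in both directions.

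Other inhibitors of the route moved in both directions. Of 14 tested, 7 rose, 1 fell and 6 did not pass, beside 28.6% higher and 22.1% lower among all genes. SOCS1 rose by 1.597 ± 0.137, from 1.81 ± 0.382 to 7.504 ± 1.24 TPM (SD, n = 4 each), CISH by 1.21 ± 0.175 to 3.05 ± 0.727 TPM and SOCS2 by 0.84 ± 0.110 to 1.37 ± 0.176 TPM, all of them feedback inhibitors of cytokine receptors. PIAS1, a SUMO ligase that restrains STAT signalling, fell by 0.96 ± 0.118, from 27.7 ± 3.26 to 13.8 ± 2.01 TPM (SD, n = 4 each). The median of the list was 0.27.

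Other reported STAT3 targets also went in both directions. Of 23 tested, 12 rose, 4 fell and 7 did not pass, beside 28.6% higher and 22.1% lower among all genes. Their median was 0.25, against 0.05 over all genes tested, and NNMT was below the filter. KLF5, a Krüppel-like transcription factor, rose by 2.21 ± 0.0887, from 11.1 to 55.3 TPM. The kinase SGK1 rose by 1.64 ± 0.0865, from 21.4 to 68.3 TPM, IER3 by 1.37 ± 0.0887 and TFCP2L1, a transcription factor of mouse naive cells, by 1.74 ± 0.142 to 3.05 TPM. GADD45G, a stress response gene, ranged from 10.04 to 14.4 TPM in primed libraries and dropped to 0.159 and 0.178 TPM without feeders and to 1.13 and 1.40 TPM on MEFs. MYC ranged from 11.1 to 14.6 TPM in primed libraries and reached 46.8 and 47.3 TPM without feeders and 31.0 and 31.4 TPM on MEFs. The MEK inhibitor and LIF were in the same medium, so their shares in these changes cannot be told apart.

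Besides JAK and STAT3, LIF receptors feed the RAS and PI3K routes. Of 20 tested genes of these routes, 5 rose, 4 fell and 11 did not pass, close to the shares of all genes (28.6% higher and 22.1% lower), and their median was 0.01. HRAS rose by 0.71 ± 0.0594, from 32.1 to 53.0 TPM, and the PI3K subunit PIK3CB by 0.50 ± 0.0655, from 39.4 to 56.1 TPM. The adaptor GAB1 fell by 0.60 ± 0.113, from 9.02 to 5.64 TPM. PTPN11, the phosphatase SHP2 that docks on IL6ST as SOCS3 does, was named after its values were seen, at 99.1 against 95.6 TPM (limma, adjusted p = 0.525).

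**Figure D5:**
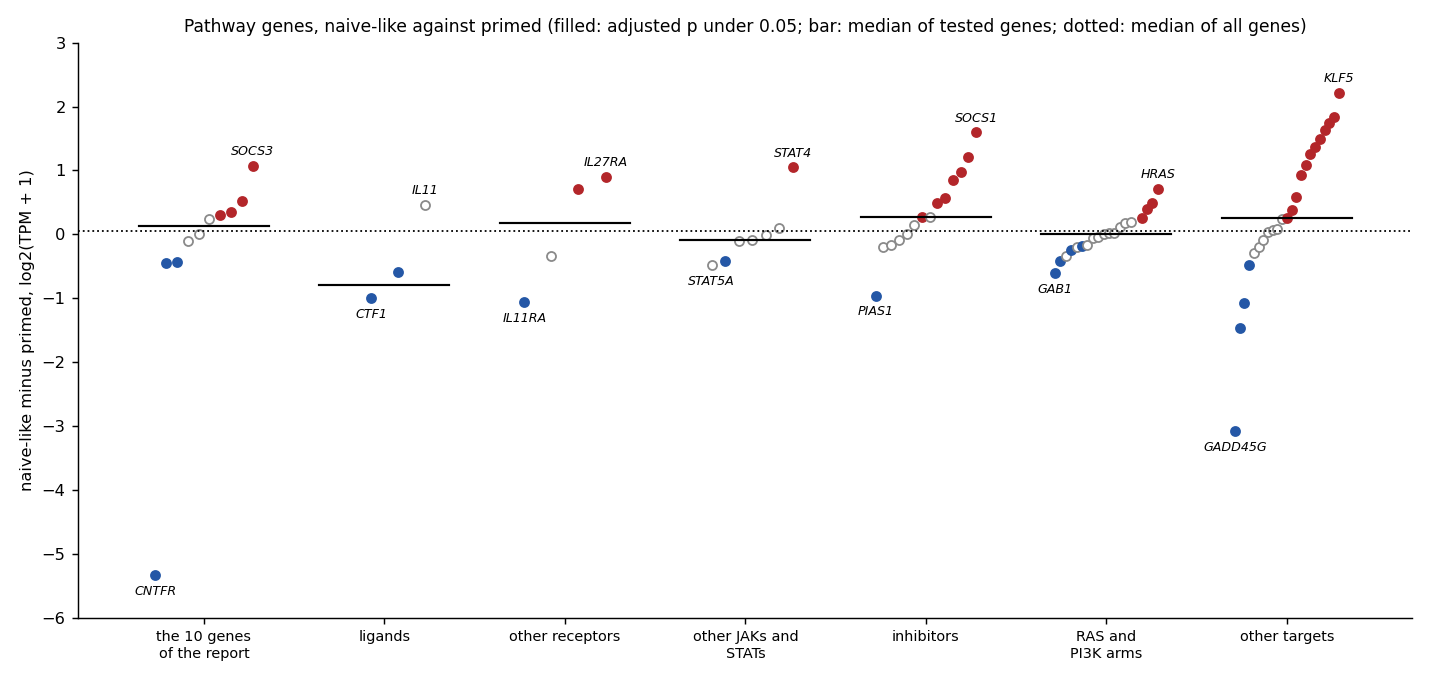
Difference between naive-like and primed libraries in log2(TPM + 1) for each tested and reported gene of the 10 and of 6 further lists (points), with the median over all tested genes of each list (bar) and of all genes (dotted line at 0.05). Filled points passed at an adjusted p under 0.05. Ligands have a median of −0.80 and inhibitors one of 0.27, and the lowest and highest gene shown in each list is named.

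Between MEF and feeder-free libraries, 1 of 4 ligands, 1 of 4 other receptors (IL11RA) and 1 of 20 RAS and PI3K genes (MAPK3) rose. Among all genes, 2.89% passed as higher on MEFs and 2.27% as lower. IL11RA was at 4.78 and 6.003 TPM where feeders were absent and 9.32 and 8.59 TPM on MEFs (0.64 ± 0.136, limma, adjusted p = 0.0377). MAPK3, an ERK kinase, was at 50.4 and 49.3 TPM against 65.7 and 63.6 TPM (0.37 ± 0.0537, limma, adjusted p = 0.00919). Of 23 targets, GADD45G rose by 0.95 ± 0.147 (limma, adjusted p = 0.0114) and MYC fell by 0.58 ± 0.0768 (limma, adjusted p = 0.00642). With either MEF library left out, the calls of IL11RA, MAPK3, GADD45G and MYC did not hold (limma, adjusted p = 0.0595 to 0.203). Those of GADD45G and IL11RA were also lost without feeder-free replicate 2 (0.0555 and 0.0521), and that of IL11RA without feeder-free replicate 1 (0.0989) or either library of line A (0.0521 and 0.0518). Between the primed lines, 3 of 23 targets rose in line B, with GBX2 (1.14 ± 0.166) and SALL4 (0.36 ± 0.0598) first by adjusted p. From the other 5 lists, 0 genes passed in either direction. Of all genes, 4.18% passed as higher in line B and 3.17% as lower. SALL4 did not pass without either library of line A or line B replicate 2 (limma, adjusted p = 0.0658 to 0.0735). GBX2 was low, at 0.613 and 0.282 TPM in line A and 2.24 and 2.10 TPM in line B. It did not pass with a pseudocount of 0.1 (limma, adjusted p = 0.0615).

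Genes with the most similar pattern were sought among 9599 genes with a mean of at least 5 TPM, by the root mean squared difference of log2(TPM + 1) after centring each gene on its mean over the 8 libraries. The closest to CNTFR were DLK1 (0.192), CAPN6 (0.248) and ANKRD46 (0.251), against 2.67 for the spread of CNTFR itself. SOCS3 was closest to CCDC86 (0.0550), the BMP target ID1 (0.0651) and MRPS11 (0.0780), with a spread of its own of 0.558. STAT3 was closest to DFFA (0.0308), WASHC1 (0.0309) and RAB34 (0.0379), and IL6ST to ERCC4 (0.0398), KIAA0753 (0.0548) and ANKIB1 (0.0601).

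LIFR was closest to USF3 (0.0491), EPG5 (0.0559) and MYCBP2 (0.0657), with a spread of its own of 0.188. All of these were lowest in feeder-free replicate 2, where USF3 was at 4.86 TPM against 7.17 to 8.18 TPM elsewhere, EPG5 at 4.60 TPM against 5.86 to 7.33 TPM and MYCBP2 at 4.96 TPM against 6.49 to 7.96 TPM. Those genes were chosen for their likeness to LIFR over the same libraries, so a low value there follows from the choice. How common it was among all genes was not tested.

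Some of these genes are neighbours. In the RefSeq annotation of the sheep assembly ARS-UI_Ramb_v3.0, used for names and gene order because the sources used here do not give the build behind the TPM, CNTFR and IL11RA lie on the same chromosome with 4 protein-coding genes between them. Both fell, and of the genes between them, GALT (63.3 ± 2.59 against 55.9 ± 3.78 TPM) and RPP25L (52.6 ± 3.99 against 36.9 ± 4.10 TPM; SD, n = 4 each, primed first) stayed abundant, while ARID3C was at 2.67 ± 1.24 against 0.149 ± 0.113 TPM. STAT3 lies beside STAT5A, with STAT5B next. STAT3 rose, whereas STAT5A and STAT5B did not pass: STAT5B was at 20.9 ± 1.66 against 19.4 ± 0.571 TPM (limma, adjusted p = 0.265). LIFR and OSMR have 1 coding gene between them, and EGFLAM, an extracellular matrix gene on the other side of LIFR, was at 4.80 ± 0.312 against 15.2 ± 1.23 TPM. These neighbours were named after their values were seen.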

How the data were processed

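The deposited table gives TPM per gene for 8 libraries, and per the submitters' processing notes the authors used Salmon. The version, the build and strandedness are not given in the sources used here. Gene symbols matched RefSeq for 28429 of 28475 genes. Values were transformed to log2(TPM + 1), and the 14779 genes that reached 1 TPM in 2 or more libraries entered limma 3.58.1 in R 4.3.3, with a variance trend and two-sided p-values adjusted by Benjamini-Hochberg over all genes tested (threshold 0.05). State was fitted as 4 against 4 libraries, and the other comparisons as contrasts among 4 groups of 2. Errors are standard errors for log2 differences and standard deviations for TPM. The 10 genes, the lists and the tests were chosen with earlier results of these data known. Named genes were the 10, up to 4 genes per list with the smallest adjusted p for state, up to 2 per list passing for MEFs or lines, and the 3 most similar genes. Genes outside this rule are marked in the text, and some that it names are not reported here. The fit was tested on simulated data. TPM hold no counts, so no count model was used. Unused columns of samples numbered 0. Alternatives were pseudocounts of 0.1 and 5, no filter, a filter on the mean (5 TPM), quantile normalization, median-ratio scaling, no variance trend, the replicate number as a block, each library left out, the groups of 2 as a random block or as means, a fit of 4 groups, a single primed line, and groups fitted alone.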

Additional observations from a re-analysis of the deposited data

Results flagged for a closer look

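In 5 of 78 groups of 4 libraries checked, over 39 genes, 1 library lay far from the other 3, where chance gives about 1 in 20. Among naive-like libraries, LIFR was lowest in feeder-free replicate 2, at 3.82 TPM, CISH was lowest in MEF replicate 1, at 1.96 TPM, TFCP2L1 was highest in MEF replicate 1, at 3.51 TPM, and GBX2 was listed at 0 in all but MEF replicate 1, at 0.0384 TPM. Among primed libraries, STAT4 was highest in line B replicate 1, at 0.292 TPM.

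Genes that passed the test of MEF against feeder-free libraries were named for that reason, so their count is no result of its own. By that test, with limma, the change from primed cells differed between the naive-like groups in 4 of the genes named. It was higher on MEFs by 0.64 for IL11RA (0.0377), 0.37 for MAPK3 (0.00919) and 0.95 for GADD45G (0.0114), and lower by −0.58 for MYC (0.00642), each in 2 of 2 libraries. The call of IL11RA was lost under 12 of 17 alternatives, with adjusted p up to 0.203, that of GADD45G under 5 of 17 (up to 0.134, with a pseudocount of 5), and those of MAPK3 and MYC under 2 of 17 each, the omission of either MEF library.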

How the results depend on the processing

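The calls of CNTFR, STAT3, SOCS3 and PIM3 for state and for feeder-free against primed cells held under all 19 alternatives run for each. With the libraries of each group averaged, 2 of the 10 genes rose for state (4 in the main fit), and 2191 genes rose and 1832 fell over all genes (4233 and 3260). With quantile normalization 5 of the 10 rose in the feeder-free comparison in place of 3. Between the lines, 0 in place of 1 of the 10 rose with a pseudocount of 5, no filter, median-ratio scaling, quantile normalization, the replicate number as a block, or the 2 lines fitted alone, and 0 to 0 with a library left out. Median-ratio scaling gave 404 rises over all genes between the lines (618 in the main fit) and 602 falls (469), or 40.2% of calls as rises against 56.9%; quantile normalization gave 43.7%. For MEFs, 194 genes fell without a filter and 211 without a variance trend (335 in the main fit), and 246 rose with the 2 groups fitted alone (427). With a library left out, 99 to 454 rose and 60 to 281 fell for MEFs, and 184 to 729 rose and 170 to 494 fell between the lines. The cause was not tested.

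Signs turned only in differences that did not pass. OSMR stood at −0.026 for state with median-ratio scaling (−0.067 to 0.089 with a library left out), at 0.083 with quantile normalization and 0.19 against line B alone in the feeder-free comparison (−0.15 to 0.11 with a library left out), and at −0.038 with quantile normalization for MEFs (−0.060 to 0.19). LIFR ranged from −0.17 to 0.030 for state, from −0.53 to 0.036 in the feeder-free comparison and from −0.0086 to 0.56 for MEFs with a library left out. For MEFs, JAK2 was at −0.014 with median-ratio scaling and −0.069 with quantile normalization (−0.037 to 0.056 with a library left out), JAK1 at −0.029 with quantile normalization, IL6ST at −0.24 to 0.22 and CNTFR at −0.032 to 0.32 with a library left out. Between the lines, STAT3 was at −0.045 with median-ratio scaling and −0.040 with quantile normalization, and PIM1 at −0.22 to 0.12 with a library left out. For single genes, 1163 of 1280 differences kept their direction and side of the threshold, and 781 of 864 counts over further lists stayed within 1.5 times the count reported.

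Same-numbered replicates did not deviate together (correlation of deviations from −0.0748 to 0.0973 over 14779 genes). Whether same-numbered libraries were handled together is not given in the labels, and these correlations cannot settle it. With the replicate number as a block, SOCS3 between the lines had an adjusted p of 0.0506 (limma), and 0 of the 10 genes passed there. No scaling moved the median over all genes by more than 0.1. The labels give only an approximate number of reads per library, and TPM hold no counts, which limits what can be said of genes near 1 TPM.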
